A study of Mus musculus with 4 samples.

Results

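Genes that carry a cell through mitosis were examined in 4 populations of mouse CD4 T cells, each measured on 1 expression array. The list holds 40 genes, chosen by name: cyclins and kinases of mitotic entry, spindle checkpoint and kinetochore proteins, spindle motors, cytokinesis proteins and chromosome structure proteins. Of the 18193 genes with a probe set of their own, 39 belong to the list. Ccnb1, the gene of cyclin B1, has no probe set under its name here and was not analysed here. A gene is represented by its probe set with the highest mean log2 signal over the 4 arrays, and 26 of the 39 genes have more than 1 probe set.

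Spleen and lymph nodes of 8 to 10 week old C57BL/6 mice were the source of all cells, which were sorted after culture by a GFP signal for IL-17 and an APC signal for Foxp3. Th0 cells grew from naive CD4 T cells under Th0 conditions and were sorted as negative for both. Th17 cells grew from naive CD4 T cells under Th17 conditions and were sorted as IL-17 positive and Foxp3 negative. The exFoxp3Th17 cells had the same culture conditions and the same gate, but grew from Foxp3+ CD4 T cells. Treg cells grew from Foxp3+ CD4 T cells with IL-2 and were sorted as Foxp3 positive and IL-17 negative. The labels do not say how many mice gave each population or whether mice were pooled. The design compares the mitotic program between the populations sorted as IL-17 positive from either origin, and between each of them and a population of the same origin sorted as IL-17 negative. With 1 array per population there is no spread between samples and no test, so every difference is one between 2 arrays.

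Mitosis is driven by Cdk1 bound to A and B cyclins, with the Aurora and Polo kinases acting on the spindle and chromosomes. The spindle checkpoint holds cells in metaphase until kinetochores are attached, after which the ubiquitin ligase APC/C, activated by Cdc20, has securin and cyclin B destroyed. Most of these genes are silent in resting lymphocytes and are transcribed from late S phase to mitosis, which is why Ki-67 and its like serve as markers of proliferating T cells.

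The arrays carried CD4 T cell RNA: all 6 measured CD4 T cell markers were above the floor on each array, with summed signals of 10193 to 12821. The floor, 12.1, is the median over every probe set other than controls, pooled over arrays, and lower values were set to it before taking log2. The measured markers of CD8 T cells, B cells, myeloid, NK and erythroid cells summed to between 2.40 and 97.0 per array and cell type. The exFoxp3Th17 array stood apart in sex-linked transcripts, with Xist at 3766 against 7.41 to 10.8 on the other 3, and Y-linked Eif2s3y at 4.66 against 654 to 876. This difference cannot be told apart from the population in any comparison with exFoxp3Th17. Foxp3 was at 585 in Treg and below the floor on the other arrays (4.25 to 8.03). Il17a was below the floor on all 4 arrays (7.09 to 9.81), also in both populations sorted as IL-17 positive, so its transcript does not bear out that gate here. As a measure of RNA integrity, Gapdh control probes gave a 3' to 5' ratio between 0.907 and 1.06, and Actb control probes one between 1.12 and 1.31.

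The mitosis genes kept nearly one order across the populations: exFoxp3Th17 lowest, Th17 next, and Th0 and Treg highest. A smaller share of dividing cells and less RNA per dividing cell cannot be told apart in bulk RNA. The exFoxp3Th17 array had the lowest signal for 38 of 39 genes, and Th17 the second lowest for 37. Th0 was highest for 26 genes and Treg for 13. Exactly exFoxp3Th17, Th17, Treg, Th0 from low to high was the order of 25 genes, and a further 12 had Treg above Th0 instead. Smc4, with Th17 lowest, and Smc2, with Th17 above Th0, were the exceptions. All 39 genes were above the floor on all 4 arrays. The median signal over the genes was 748 in Th0, 702 in Treg, 468 in Th17 and 209.9 in exFoxp3Th17.

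**Figure D1:**
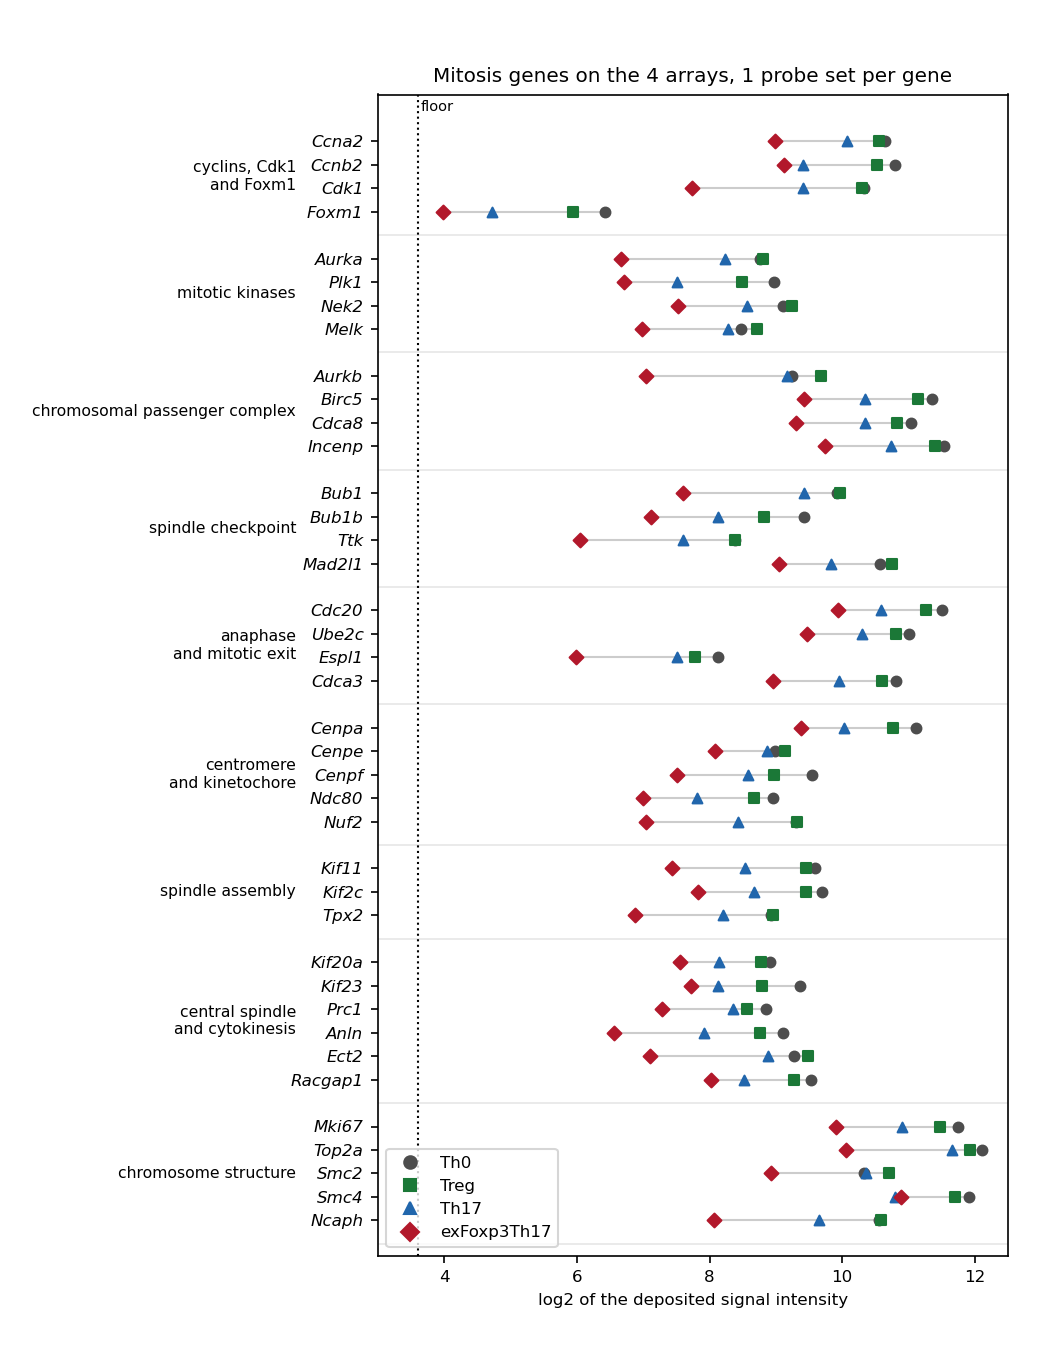
Signals of the 39 mitosis genes on the 4 arrays, each symbol 1 array, on a log2 axis of the deposited signal intensity, with genes grouped by role and the floor as a dotted line. The exFoxp3Th17 diamond is leftmost for 38 genes and the Th17 triangle is second for 37; positions are to be compared along a line, not between genes.

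A gene was called lower at a difference of at least 2-fold between arrays, provided that the larger signal exceeded the floor. Against Th17, exFoxp3Th17 had 21 of the 39 genes lower and none higher, where 7.27% of all 11769 genes above the floor on any array were called lower and 7.48% higher. The median log2 ratio of the mitosis genes was -1.04, against 0.03 over all genes. This median lies beside the threshold, and 15 of the 39 genes were within 0.2 of a log2 ratio of -1, from Bub1b just inside (-1.02) to Mki67 just outside (-0.99). The count was 34 at 1.5-fold and 5 at 3-fold, where 14.8% and 2.90% of all genes were lower. It was 12 when all probe sets of a gene were averaged, those below the floor included, where 5.40% of all genes were lower. Against Treg, exFoxp3Th17 had 38 of 39 genes lower and none higher (9.94% of all genes lower, 11.3% higher), with a median of -1.70 against 0.02 over all genes. Smc4 was the gene outside, at -0.80, and Cenpe the nearest inside, at -1.06. At 3-fold the count was 25, where 4.58% of all genes were lower.

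Between populations of naive origin, Th17 had 13 of 39 genes lower than Th0 and none higher, where 6.88% of all genes were lower and 8.22% higher. The median was -0.85 against -0.02 over all genes, with Racgap1 just inside the threshold (2.01-fold) and Cenpf just outside (1.96-fold). The count was 28 at 1.5-fold and 1 at 3-fold, where 17.2% and 2.34% of all genes were lower. The count at 3-fold is near that share and is no result about the list. Treg and Th0 differed by 2-fold in none of the 39 genes (4.95% of all genes lower, 5.56% higher), with a median of -0.20 against -0.01. The remaining pairs follow from these. By the chosen probe sets, exFoxp3Th17 was lower than Th0 in 38 genes, all but Cenpe, and higher in none (8.42% of all genes lower, 9.92% higher). The other Cenpe probe set was 2.69-fold lower there. Both other Smc4 probe sets fell short of 2-fold (1.86-fold and 1.83-fold), as did some of other genes. Th17 was lower than Treg in 2 genes, Ccnb2 and Foxm1, and higher in none (4.36% of all genes lower, 5.26% higher). Several of these comparisons share an array, so their counts are not separate pieces of evidence.

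Many mitotic promoters are bound by NF-Y at CCAAT boxes and by the MuvB core of the DREAM complex, or by its B-Myb and FoxM1 forms, at the cell cycle genes homology region (CHR). Because the genes were lower together, their promoters were searched on both strands for the CHR letters TTTGAA and the CCAAT box letters CCAAT, in windows from 250 bases before to 50 bases after the gene start (RefSeq, GRCm38.p6). Promoters of 32 of the 39 genes were in the table, as 34 windows. The CHR letters stood in 26 of 34 windows (76.5%), against 17.9% of all 32851 promoter windows and 12.1% of the 12170 windows of genes above the floor. CCAAT stood in 26 of 34 (76.5%), against 37.4% and 37.7%, and both in 23 of 34 (67.6%), against 6.95% and 4.78%. Of the 34 CHR matches, 25 began within 50 bases of the gene start, in 22 of the 24 genes that had any. Shown here are the 250 bases before the start for the 5 genes with the highest mean signal among the 11 that hold both letter runs there, with matches in capitals.
Top2a (chr11:99024190-99024439, minus strand): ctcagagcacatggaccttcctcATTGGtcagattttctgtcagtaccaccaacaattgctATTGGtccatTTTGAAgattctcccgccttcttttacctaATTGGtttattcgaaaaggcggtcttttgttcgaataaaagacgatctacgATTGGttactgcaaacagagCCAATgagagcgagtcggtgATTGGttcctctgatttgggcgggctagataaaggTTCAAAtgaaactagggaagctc
Mki67 (chr7:135716380-135716629, minus strand): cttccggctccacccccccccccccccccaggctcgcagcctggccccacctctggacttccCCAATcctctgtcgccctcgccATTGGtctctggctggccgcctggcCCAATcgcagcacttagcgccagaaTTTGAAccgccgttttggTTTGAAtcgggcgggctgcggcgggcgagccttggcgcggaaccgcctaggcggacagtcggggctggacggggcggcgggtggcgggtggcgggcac
Cdc20 (chr4:118437344-118437593, minus strand): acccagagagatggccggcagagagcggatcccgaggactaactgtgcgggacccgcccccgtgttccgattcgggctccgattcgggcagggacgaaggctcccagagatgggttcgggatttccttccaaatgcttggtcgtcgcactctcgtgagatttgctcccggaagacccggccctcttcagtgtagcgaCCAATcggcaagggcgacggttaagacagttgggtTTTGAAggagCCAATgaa
Ube2c (chr2:164769679-164769928, plus strand): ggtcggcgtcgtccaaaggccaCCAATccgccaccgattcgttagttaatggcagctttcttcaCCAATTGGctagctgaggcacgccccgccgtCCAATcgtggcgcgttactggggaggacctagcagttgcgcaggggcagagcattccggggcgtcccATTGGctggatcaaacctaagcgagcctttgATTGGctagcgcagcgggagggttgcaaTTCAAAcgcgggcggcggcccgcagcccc
Smc2 (chr4:52438971-52439220, plus strand): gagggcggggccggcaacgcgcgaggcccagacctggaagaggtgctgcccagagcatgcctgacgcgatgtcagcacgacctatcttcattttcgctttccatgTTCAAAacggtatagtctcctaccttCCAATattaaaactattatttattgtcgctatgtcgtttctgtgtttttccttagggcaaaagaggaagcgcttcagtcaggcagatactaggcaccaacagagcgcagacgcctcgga
In the Top2a, Mki67 and Ube2c windows CCAAT occurs 6, 3 and 6 times, counting both strands, and in Ube2c a forward and a reverse CCAAT overlap. Pairs of CCAAT on the same strand, 30 to 35 bases apart, stood in 6 of 34 windows (17.6%). They stood in 1.19% of all windows and 2.19% of those of genes above the floor. This spacing was chosen after the windows were seen. The E2F letters TTCCCGC were in none of the 34 windows (4.60% of all), TTGGCGC in 5 (14.7%, against 2.45% of all), and the CHR variant TTCGAA in 3 (8.82%, against 1.56% of all). In windows of genes above the floor these 3 stood in 8.13%, 4.22% and 2.12%. The median log2 ratio of exFoxp3Th17 to Th17 was -1.03 for the 24 mitosis genes with TTTGAA and -1.17 for the 8 without. For Th17 to Th0 the medians were -0.92 and -0.65, for exFoxp3Th17 to Treg -1.65 and -1.73, and for Treg to Th0 -0.25 and 0.10. The ranges of the genes with and without it overlapped in all 4 comparisons, and the differences were not tested. A match is a run of letters and was not tested for binding.

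Among the cyclins, Cdk1 and Foxm1, 2 of 4 measured genes were lower in exFoxp3Th17 than in Th17, and all 4 lower than in Treg. Over all genes, 7.27% and 9.94% were lower in these comparisons, and 6.88% in Th17 against Th0. These shares apply to each role below. A role holds 3 to 6 measured genes, and 15 of the 39 genes lay close to the threshold against Th17. Differences between role counts can therefore turn on the cutoff and are no result about the roles. Cdk1, the kinase of mitotic entry, had a signal of 1279.8 in Th0, 1265 in Treg, 680.2 in Th17 and 212 in exFoxp3Th17. Its Th0 and Treg values nearly coincided, and exFoxp3Th17 was 3.20-fold below Th17 and 5.96-fold below Treg. Ccna2, the gene of cyclin A2, read 1594, 1498, 1081 and 509 in the same order of arrays, 2.12-fold lower in exFoxp3Th17 than in Th17. Ccnb2, the gene of cyclin B2, read 1777 in Th0, 1471 in Treg, 679.7 in Th17 and 559 in exFoxp3Th17. Its main step lay between Th0 and Th17 (2.61-fold), while the 2 Th17 populations differed by 1.22-fold. Foxm1, the transcription factor that drives this program in G2, had a signal of 86.1 in Th0, 61.5 in Treg, 26.4 in Th17 and 15.7 in exFoxp3Th17, the last close to the floor of 12.1. It had the largest Th17 to Th0 difference of the 39 genes, 3.27-fold, and both of its other probe sets that were above the floor on any array were below it in exFoxp3Th17.

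Of the mitotic kinases outside these complexes, 3 of 4 were lower in exFoxp3Th17 than in Th17. Aurka, the centrosomal Aurora kinase, had a signal of 432 in Th0, 449 in Treg, 299 in Th17 and 101 in exFoxp3Th17. Th0 and Treg were level, and the step from Th17 to exFoxp3Th17 was 2.96-fold. Nek2, a kinase of centrosome separation, read 554 in Th0, 608 in Treg, 377 in Th17 and 184 in exFoxp3Th17, a 2.05-fold step between the Th17 populations. Plk1, the Polo kinase, read 504 in Th0, 359 in Treg, 183 in Th17 and 105 in exFoxp3Th17. For Plk1 the step from Th0 to Th17 (2.75-fold) was called and that from Th17 to exFoxp3Th17 (1.74-fold) was not. Melk, a kinase of proliferating cells, was 2.48-fold lower in exFoxp3Th17 than in Th17 and differed 1.14-fold between Th17 and Th0.

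The chromosomal passenger complex corrects faulty attachments at centromeres and later acts in cytokinesis. Its kinase, Aurkb, had a signal of 604 in Th0, 824 in Treg, 577 in Th17 and 131 in exFoxp3Th17. That was the largest difference of the 39 genes both from Th17 (4.40-fold) and from Treg (6.29-fold), while Th17 and Th0 were nearly level. The other Aurkb probe set gave log2 ratios of -1.94 for exFoxp3Th17 to Th17 and -0.60 for Th17 to Th0, so the level Th17 value rests on 1 probe set. The other 3 members, Incenp, Cdca8 and Birc5, are the scaffold, borealin and survivin of the same complex, and their steps between the Th17 populations were smaller. Incenp read 2965 in Th0, 2704 in Treg, 1705 in Th17 and 859 in exFoxp3Th17, 1.98-fold lower in exFoxp3Th17 than in Th17. Birc5 read 2627 in Th0, 2259.7 in Treg, 1305 in Th17 and 686 in exFoxp3Th17, 1.90-fold lower. Cdca8 was 2.06-fold lower, so by the chosen probe sets Aurkb and Cdca8 were called and Incenp and Birc5 lay just outside. Both other Cdca8 probe sets lay just outside as well, at 1.96-fold and 1.91-fold. From Th0 to Th17 those were 2.28-fold and 2.26-fold lower, where the chosen one was 1.63-fold lower. The Cdca8 calls therefore depend on the choice of probe set.

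In the spindle checkpoint, 3 of 4 genes were lower in exFoxp3Th17 than in Th17. Bub1, a kinetochore kinase, had a signal of 967 in Th0, 1006 in Treg, 687 in Th17 and 193 in exFoxp3Th17, 3.55-fold lower than in Th17. Ttk, the Mps1 kinase at the top of the checkpoint, was 2.94-fold lower and Bub1b, the gene of BubR1, 2.03-fold lower. Mad2l1, whose protein Mad2 binds Cdc20, read 1512 in Th0, 1717 in Treg, 908 in Th17 and 527 in exFoxp3Th17. Its 1.72-fold difference from Th17 was not called, though its 3.26-fold difference from Treg was.

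Of the genes of anaphase and mitotic exit, 1 of 4 was called lower in exFoxp3Th17 than in Th17 (median log2 ratio -0.91), where 7.27% of all genes were. All 4 had log2 ratios below 0 there, and Cdca3 lay just outside the threshold. By the chosen probe sets, none of the 4 was called lower in Th17 than in Th0 (median -0.79), where 6.88% of all genes were. With 4 genes, neither count is a result about this role. Cdc20, the APC/C activator, had a signal of 2892 in Th0, 2459 in Treg, 1528 in Th17 and 983 in exFoxp3Th17, 1.55-fold lower in exFoxp3Th17 than in Th17. Its chosen probe set was 1.89-fold lower in Th17 than in Th0. Both other Cdc20 probe sets, above the floor on all 4 arrays, were lower there by at least 2-fold. The absence of a Cdc20 call between Th17 and Th0 therefore depends on the choice of probe set. Espl1, the gene of separase, which cleaves cohesin, read 280.2 in Th0, 219 in Treg, 183 in Th17 and 63.5 in exFoxp3Th17. Espl1 was the gene called, at 2.88-fold. Ube2c, an E2 enzyme of the APC/C, and Cdca3, a trigger of mitotic entry, were 1.78-fold and 1.98-fold lower. All 4 were lower than in Treg, by 2.50-fold to 3.45-fold.

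Of the centromere and kinetochore genes, 2 of 5 were lower in exFoxp3Th17 than in Th17 and 2 of 5 lower in Th17 than in Th0. Cenpa, the centromeric histone H3 variant, had a signal of 2207 in Th0, 1739 in Treg, 1042 in Th17 and 667 in exFoxp3Th17. Its 2.12-fold step from Th0 to Th17 was called and its 1.56-fold step between the Th17 populations was not. Nuf2, a subunit of the Ndc80 complex that grips microtubules, read 629.6 in Th0, 639 in Treg, 345 in Th17 and 132 in exFoxp3Th17, with steps of 1.82-fold and 2.61-fold. Its partner Ndc80 showed 2.20-fold and 1.77-fold. Cenpe, a kinetochore motor, had the smallest exFoxp3Th17 to Th0 difference of the list by the chosen probe sets, 1.87-fold, but 2.69-fold by its other one. Its Th0 value of 506 and Th17 value of 468 were close, but its other probe set had a log2 ratio of -0.79 for these arrays.

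In spindle assembly, 2 of 3 genes were lower in exFoxp3Th17 than in Th17 and all 3 lower than in Treg. Tpx2, which activates Aurora A on the spindle, had a signal of 485 in Th0, 497 in Treg, 296 in Th17 and 117 in exFoxp3Th17, 2.53-fold lower than in Th17. Kif11, the motor that separates spindle poles, was 2.14-fold lower. Kif2c, a microtubule-depolymerising kinesin, read 827 in Th0, 702 in Treg, 408 in Th17 and 227 in exFoxp3Th17, 1.79-fold lower.

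Genes of the central spindle and cytokinesis were divided, with 3 of 6 lower in exFoxp3Th17 than in Th17 and 3 of 6 lower in Th17 than in Th0. Ect2, the exchange factor that activates RhoA at the cleavage furrow, had a signal of 621 in Th0, 716 in Treg, 469 in Th17 and 137 in exFoxp3Th17. It was 3.42-fold lower in exFoxp3Th17 than in Th17 and 1.32-fold lower in Th17 than in Th0. Racgap1 and Kif23 form the centralspindlin complex that recruits Ect2, and for both the larger step lay between Th0 and Th17. Racgap1 read 737 in Th0, 618 in Treg, 367 in Th17 and 259 in exFoxp3Th17, with steps of 2.01-fold from Th0 to Th17 and 1.42-fold from there to exFoxp3Th17. Kif23 read 659 in Th0, 440.5 in Treg, 278 in Th17 and 209.9 in exFoxp3Th17, with steps of 2.37-fold and 1.33-fold. Its other probe set above the floor on all 4 arrays gave nearly equal steps, 1.64-fold and 1.57-fold. Anln, an actin-binding furrow protein, was lower at both steps, by 2.30-fold and 2.55-fold. Prc1, which bundles midzone microtubules, was 2.08-fold lower in exFoxp3Th17 than in Th17, and the kinesin Kif20a 1.49-fold lower.

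In chromosome structure, 3 of 5 genes were lower in exFoxp3Th17 than in Th17. Top2a, the topoisomerase that untangles sister chromatids, had a signal of 4396 in Th0, 3911 in Treg, 3218 in Th17 and 1064 in exFoxp3Th17, 3.02-fold lower than in Th17. Its other probe set above the floor put the Th17 to Th0 ratio at -1.28 on the log2 scale, against -0.45 for the chosen one. Mki67, the gene of the proliferation marker Ki-67, read 3445 in Th0, 2837 in Treg, 1915 in Th17 and 964 in exFoxp3Th17. It was 1.80-fold lower in Th17 than in Th0 and 1.99-fold lower in exFoxp3Th17 than in Th17, just under the threshold.

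Subunits of condensin, the ring complex that compacts mitotic chromosomes, did not keep one pattern. Smc4 had a signal of 3837 in Th0, 3313 in Treg, 1772 in Th17 and 1899.7 in exFoxp3Th17, the one gene of the list whose lowest array was Th17. All 3 of its probe sets had log2 ratios above 0 for exFoxp3Th17 to Th17, at 0.10, 0.36 and 0.42, and below -1 for Th17 to Th0. Its partner in the ring, Smc2, read 1288 in Th0, 1672 in Treg, 1314 in Th17 and 484 in exFoxp3Th17. All 4 other Smc2 probe sets were lower in exFoxp3Th17 than in Th17, while for Th17 to Th0 they were mixed. Ncaph, the kleisin of condensin I, was 3.00-fold lower in exFoxp3Th17 than in Th17. The condensin I subunits Ncapd2 and Ncapg, which are not among the 40 genes, had log2 ratios of -1.09 and -1.39 there. Smc4 therefore differed from the other 4 condensin I genes in direction between the Th17 arrays, and the difference was not tested.

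**Figure D2:**
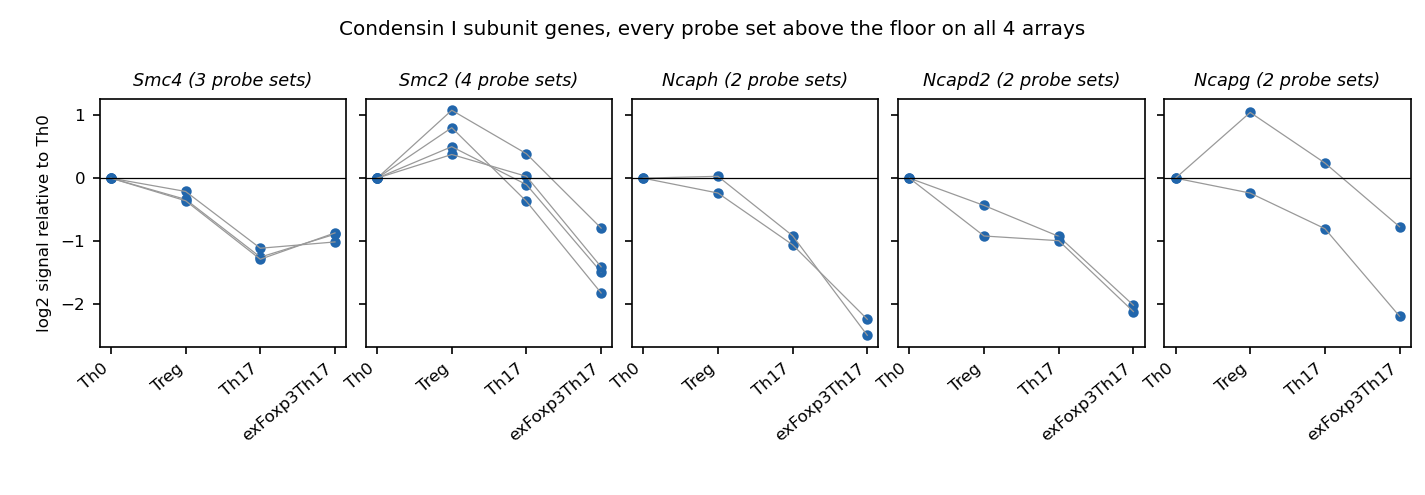
Log2 signal relative to Th0 for the 5 condensin I genes on the 4 arrays, 1 line per probe set above the floor on all of them (lines only join values of a probe set). From Th17 to exFoxp3Th17 the 3 Smc4 lines go up and all lines of Smc2, Ncaph, Ncapd2 and Ncapg go down.

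The culture contrasts of the 2 origins share no array. Between the arrays of the IL-17 negative and the IL-17 positive sort, 38 of 39 genes had log2 ratios below 0 in both origins, and the difference was larger in cells of Foxp3+ origin for 37 of 39. The median difference between the contrasts was -0.86 on the log2 scale, from -2.59 for Aurkb to 0.31 for Smc4. By the chosen probe sets, Smc4 and Kif23 were the genes with the smaller difference in Foxp3+ origin. Another Kif23 probe set above the floor on all 4 arrays had the larger difference there, at -1.28 against -0.71 in naive origin. Across the 39 genes the sizes in the 2 contrasts were not alike (Pearson r = -0.17, Spearman rho = -0.22), where all 11769 genes gave r = 0.14 and rho = 0.09; genes are not independent replicates. Of the 13 genes called lower in Th17 than in Th0, all but Smc4 were also called lower in exFoxp3Th17 than in Treg. As 38 of all 39 genes were called lower there, this overlap is no result about the 13. Aurkb, Ect2 and Smc2 differed by 1.32-fold or less from Th0 to Th17 and by 3.45-fold or more from Treg to exFoxp3Th17. These limits are the values of Ect2 and Smc2 themselves. Melk (1.14-fold and 3.33-fold) and Top2a (1.37-fold and 3.68-fold) lay near them. The other Aurkb probe set was 1.52-fold lower in Th17 than in Th0. The Treg and Th0 references were cultured differently, so this is a description of 4 arrays and not a test of origin.

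**Figure D3:**
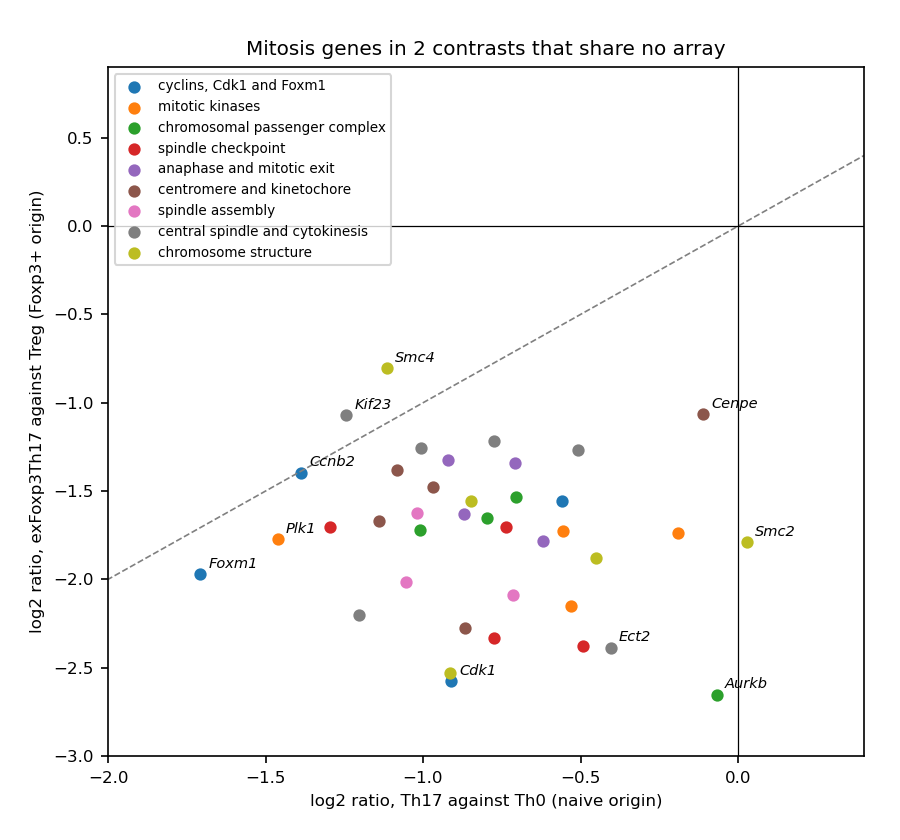
Each point is 1 of the 39 mitosis genes, with the log2 ratio of Th17 to Th0 on the horizontal axis and of exFoxp3Th17 to Treg on the vertical axis, coloured by role; the dashed line marks equal ratios. Only Smc4 and Kif23 lie above the line, and Aurkb lies lowest.

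Treg and Th0 were within 2-fold for the chosen probe set of every gene. The log2 ratios ran from -0.61 for Bub1b to 0.45 for Aurkb, with 26 below 0 and 13 above. The genes higher in Treg included Aurkb, Smc2, Melk, Ect2 and Mad2l1, and those lower by the most were Bub1b, Kif23 and Cenpf (-0.61, -0.58 and -0.57). As a scale for such values, the log2 ratios of 2 probe sets of the same gene differed between Treg and Th0 with a robust SD of 0.41 over 2515 genes, and by 0.42 to 0.50 in the other 3 comparisons.

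Other probe sets of the same genes were read separately. Of 51 further probe sets, 29 were above the floor on all 4 arrays, covering 20 genes, and 27 of these 29 had their lowest signal in exFoxp3Th17. The exceptions were those of Smc4. Between exFoxp3Th17 and Th17 27 of them were below 0, with a median log2 ratio of -0.93, and between Th17 and Th0 28 were below 0. For exFoxp3Th17 and Treg all 29 were below 0, with a median of -1.59. For Treg and Th0, 21 of the 29 were below 0, with a median of -0.24. Of the 45 further probe sets above the floor on any array, 4 were lower in Treg than in Th0 by 2-fold or more, those of Cenpf (-1.81), Ttk (-1.23), Cenpa (-1.20) and Top2a (2.00-fold), and 1 of Smc2 was higher (1.08).

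**Figure D4:**
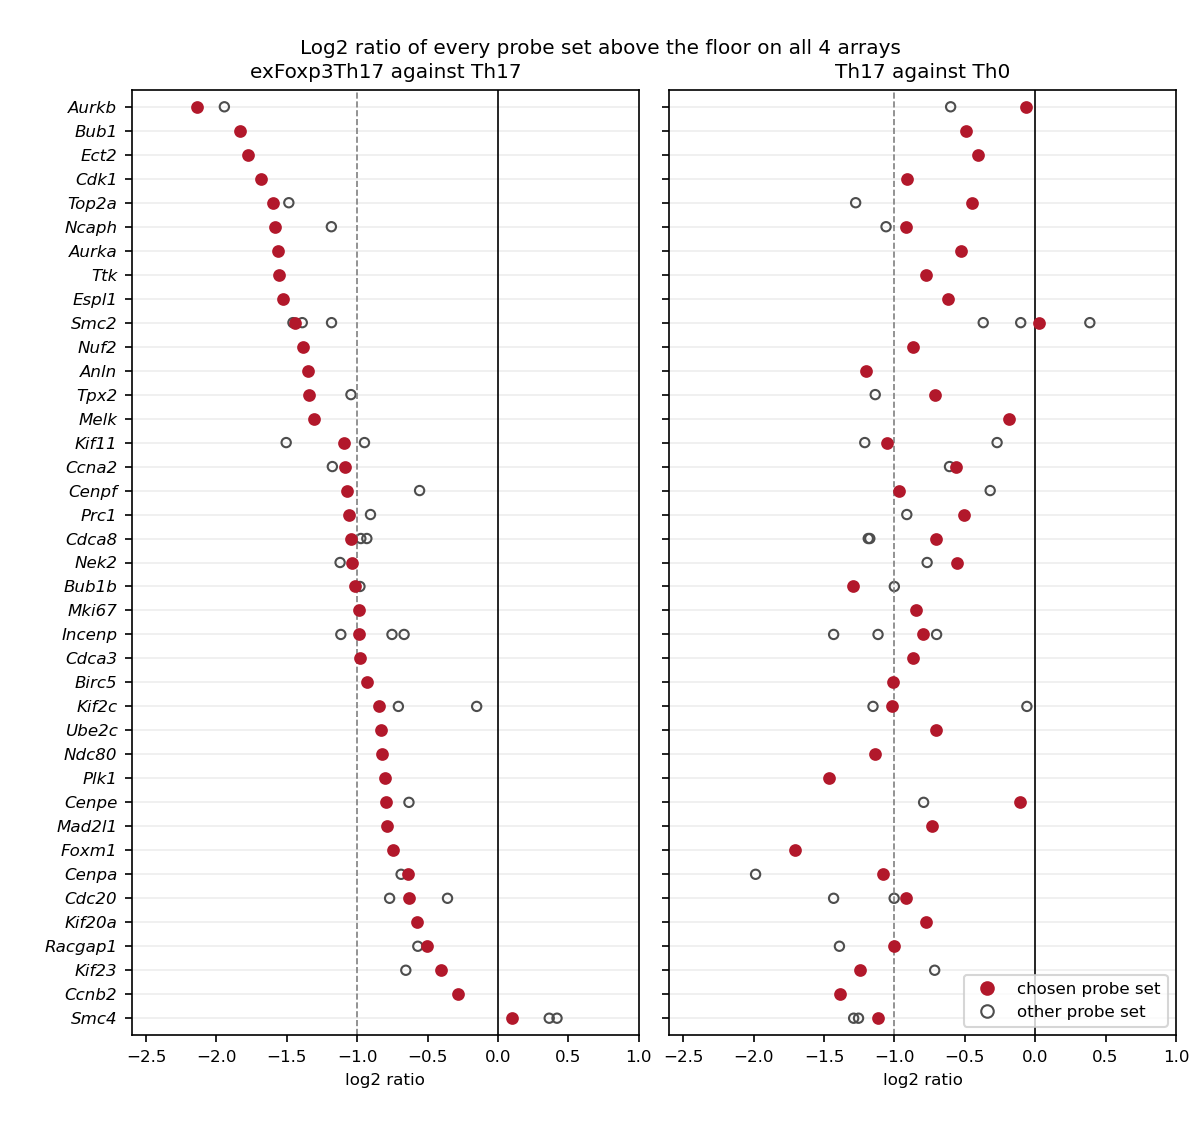
Log2 ratios of every probe set above the floor on all 4 arrays, for exFoxp3Th17 to Th17 on the left and Th17 to Th0 on the right, with genes in order of the left panel; filled points are the chosen probe sets and the dashed line is a 2-fold lower signal. On the left all points but the 3 of Smc4 lie below 0, and on the right Smc2 spans 0.

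A list of 75 further mitotic genes, of which 72 were above the floor, followed the same pattern. In it 35 genes were lower in exFoxp3Th17 than in Th17, 16 in Th17 than in Th0 and 60 in exFoxp3Th17 than in Treg. None was higher, and the medians were -0.98, -0.72 and -1.53. Over all genes, 7.27%, 6.88% and 9.94% were lower in the same comparisons. This list was also chosen with earlier results of these data known. The largest differences between the Th17 populations were in Spc25, an Ndc80 complex subunit (log2 ratio -1.83, and -1.06 for its other probe set), the kinetochore gene Nsl1 (-1.76), the checkpoint ATPase Trip13 (-1.73) and the condensin II gene Ncapg2 (-1.66). Between Th17 and Th0 they were in Cdc25b, a phosphatase that activates Cdk1 (941 in Th0, 523 in Treg, 138 in Th17 and 97.9 in exFoxp3Th17), the kinesin Kifc1 (-1.70), Cenpm (-1.52) and Ccnf, the gene of cyclin F (-1.41). Treg and Th0 differed by 2-fold in 2 of the 72, Bora and Psrc1, both lower in Treg. That is no more than the 4.95% of all genes lower there. Their other probe sets above the floor had log2 ratios of -0.65 for Bora and 0.33 for Psrc1. Pttg1, the gene of securin, the inhibitor of separase, is named here after its values were seen, with 1670.2 in Th0, 1289 in Treg, 1262 in Th17 and 1769 in exFoxp3Th17. All 3 of its probe sets had log2 ratios above 0 for exFoxp3Th17 to Th17.

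Genes of DNA replication act earlier in the cell cycle. Of 43 measured genes, 2 were lower in Th17 than in Th0 (median -0.30), no more than the 6.88% of all genes. In exFoxp3Th17, 26 of the 43 were lower than in Th17 (median -1.37), where 7.27% of all genes were. None was higher in either comparison. The mitosis genes had medians of -0.85 and -1.04 for the same steps. The median for Treg to Th0 was 0.29 for replication and -0.20 for mitosis. Cdc6 and Mcm2, which license replication origins, had log2 ratios of -2.41 and -2.25 for exFoxp3Th17 to Th17, and the other Mcm2 probe set one of -1.35. Orc1, of the origin recognition complex, was at 72.4 in Th17 and below the floor in exFoxp3Th17 (5.56), at least 5.98-fold lower, by its chosen probe set. Its other probe set was above the floor on all 4 arrays, at 32.4 in Th17 and 14.3 in exFoxp3Th17, a log2 ratio of -1.18. The difference between the lists was not tested.

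**Figure D5:**
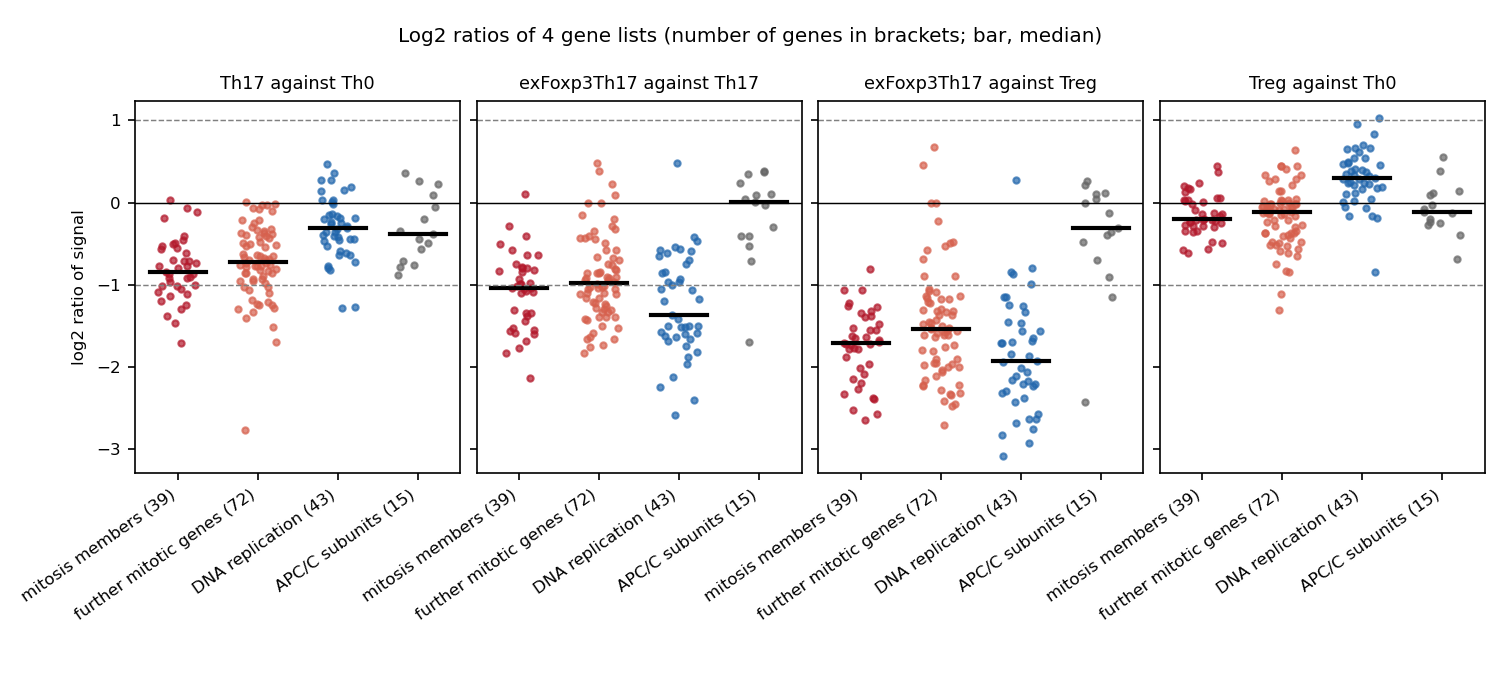
Log2 ratios of the 39 mitosis genes, 72 further mitotic genes, 43 DNA replication genes and 15 APC/C genes in 4 comparisons, each point 1 gene (spread sideways at random), bars the medians and dashed lines 2-fold. Mitosis genes have the lower median from Th0 to Th17 (-0.85 against -0.30 for replication) and replication genes the lower one from Th17 to exFoxp3Th17 (-1.37 against -1.04).

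The APC/C and its regulators are needed at exit from mitosis but much of the complex is also present in other phases. Of 15 genes, 1 was lower in exFoxp3Th17 than in Th17, with a median of 0.00, and 2 were lower than in Treg, with a median of -0.31. These counts are near the shares over all genes, 7.27% and 9.94%, and are no result about the list in these comparisons. The genes called were Fbxo5, which encodes the APC/C inhibitor Emi1 (1394 in Th0, 1364 in Treg, 826 in Th17 and 254 in exFoxp3Th17), and, against Treg, also the E2 enzyme gene Ube2s. The log2 ratios of the 15 genes for exFoxp3Th17 to Th17 ran from -1.70 to 0.38. Compared with Th0, 4 of the 15 were lower in exFoxp3Th17, with a median of -0.16, where 8.42% of all genes were lower. This was not tested.

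Of 19 genes of the DREAM, MuvB and E2F families, 5 were lower and 2 higher in exFoxp3Th17 than in Th17 (median -0.44), and 8 lower and 1 higher than in Treg (median -0.82). Over all genes 7.27% were lower and 7.48% higher in the first comparison, and 9.94% lower and 11.3% higher in the second, so the counts of higher genes are near or below the background. The lower ones included E2f1, at 88.8 in Th0, 61.0 in Treg, 57.1 in Th17 and below the floor in exFoxp3Th17 (11.8), and the repressor E2f7, at 176, 228, 125 and 35.3 in the same order. Another E2f1 probe set was above the floor on all 4 arrays, at 20.6 in Th0, 35.8 in Treg, 52.4 in Th17 and 17.8 in exFoxp3Th17. It was lower in exFoxp3Th17 than in Th17 as well, but higher in Th17 than in Th0. E2f8 and the MuvB gene Lin54 were lower as well, with log2 ratios of -1.61 and -1.29, though the other Lin54 probe set stood at -0.68. Rbl2, the gene of the pocket protein p130 that represses cell cycle genes in resting cells, was higher (it and Tfdp2 were chosen after their values were seen), at 153 in Th0, 166 in Treg, 116 in Th17 and 244 in exFoxp3Th17. Its other probe set above the floor had the same log2 ratio for exFoxp3Th17 to Th17, 1.07. Tfdp2, an E2F partner, was also called higher there (1.04), but its other 2 probe sets above the floor stood at 0.51 and 0.58.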

How the data were processed

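Total RNA (1 µg per population) was labelled with biotin and hybridised to Affymetrix arrays, per the labels. The authors deposited 1 linear signal intensity per probe set and array; the submitters' processing notes name MAS5, with a version not given in the sources used here. With the lowest and highest 2% of probe sets left out, the mean was 100.0 on each array, so the scaling was kept. The number of arrays limits the precision.

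Of 45101 probe sets, 64 are controls, 34945 have 1 gene symbol in the platform annotation, 932 have several and 9160 are unnamed here. Symbols were updated by gene identifier in a RefSeq table (34741 matched). Signals were set to the floor, log2 was taken, and a 2-fold call was applied with no test (Python 3.11.15, numpy 2.4.6, pandas 2.3.3); calls were tested on simulated fold changes. Alternatives were 2 other scalings, 3 other floors, 2 other choices of probe set and 2 other folds.

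The 40 genes, their roles, the other lists and the naming rule (per role, the highest mean signal and both extremes of the exFoxp3Th17 to Th17 ratio, with exceptions and up to 4 called genes of each other list) were chosen with earlier results of these data known. Promoters came from RefSeq.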

Additional observations from a re-analysis of the deposited data

Results flagged for a closer look

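Smc2 was the one mitosis gene whose culture contrasts had opposite signs in the 2 origins: the log2 ratio was 0.0288 for Th17 to Th0 and -1.79 for exFoxp3Th17 to Treg. The first value is close to 0, and the other probe sets of Smc2 lay on both sides of 0 there. The difference between the origins was not tested. No population had more than 1 array, so no array could be set against others of its group.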

How the results depend on the processing

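No paired analysis was possible because each population has 1 array. The order of the arrays by median was the same under every alternative but the mean of all probe sets, where Treg came above Th0 and exFoxp3Th17 was lowest for 38 genes, as in the main setting. Of the counts of genes called lower, that of exFoxp3Th17 against Th17 (21) was 12 with the mean of probe sets, 34 at 1.5-fold and 5 at 3-fold. That of Th17 against Th0 (13) was 28 at 1.5-fold and 1 at 3-fold, and that of exFoxp3Th17 against Treg (38) was 25 at 3-fold. That of Treg against Th0 (0) was 1 at 1.5-fold and 2 with plain _at probe sets, where Cenpa and Top2a are read from other probe sets. Over all genes 13.3% and 5.22% were lower in these settings, so neither count is a result about the list. No gene was called higher in any of these 4 comparisons under any of the 10 settings. The medians ran from -1.09 to -0.80, -0.91 to -0.79, -1.79 to -1.43 and -0.22 to -0.11 in the same order of comparisons. Of 1404 values of single genes under an alternative, 74 were no longer called, 43 became called and none changed sign and call. Quantile normalization and equal medians moved the median of all genes by less than 0.05 on the log2 scale. Equal medians moved the median of the mitosis genes further. It went from -1.70 to -1.79 for exFoxp3Th17 to Treg and from -0.20 to -0.11 for Treg to Th0. The cause of each change was not tested beyond the settings' own construction. With 1 array per population, no setting gives an error for a population.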

Other observations

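Genes that act before mitosis did not share one order. By the chosen probe sets, the D cyclins Ccnd2 and Ccnd3, which start the cycle, were lower in exFoxp3Th17 than in Th17 (log2 ratios -1.65 and -1.96). Both were about level between Th17 and Th0 (0.21 and 0.15). Another Ccnd2 probe set was also lower in exFoxp3Th17 than in Th17 (-2.07), but higher in Th17 than in Th0 (1.45). Another Ccnd3 probe set went the opposite way to the chosen one, at 1.88 and -1.61. The CDK inhibitor gene Cdkn1a was at 74.9 in Th0, 434 in Treg, 727 in Th17 and 76.9 in exFoxp3Th17, so the 2 arrays with the highest and the lowest mitotic signals had nearly the same Cdkn1a level. Cdkn2c, the gene of the CDK inhibitor p18, had 785 in Th0, 664 in Treg, 181 in Th17 and 149 in exFoxp3Th17, the order of most mitosis genes. Of 8 genes of mitotic entry and exit kinases and phosphatases, only Pkmyt1, a kinase that inhibits Cdk1, was called lower in exFoxp3Th17 than in Th17 (-1.15), and its other probe set stood at 0.24. The other 7 were within 2-fold. With 7.27% of all genes lower in this comparison, 1 of 8 is no result about the list.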
